A study of Mus musculus with 6 samples.

Results

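The genes of the cytosolic ribosomal proteins were described in eYFP-positive cells sorted from the fetal liver of CD-1 mice. The members were the protein-coding genes whose GENCODE M21 symbol is Rpl or Rps followed by a number and optional letters, or Rplp0, Rplp1, Rplp2 or Rpsa, leaving out the S6 kinases, Rps19bp and pseudogenes. This rule gave 85 genes of the 54532 in the deposited table, 52 of the large (60S) subunit and 33 of the small (40S) subunit. Of these, 77 encode core proteins and 8 encode paralogues (Rpl3l, Rpl10l, Rpl22l1, Rpl7l1, Rpl36al, Rpl39l, Rps27l and Rps27rt). Fau and Rack1 also encode proteins of the ribosome, but their names fall outside the rule. All animals had the genotype Sm22-Cre/ROSA26RYFP, in which Cre is driven by the promoter of Tagln (Sm22) and switches on YFP from the ROSA26 locus, so the sorted cells are those in which the promoter has been active, or descend from such cells. Group E16 was embryonic day 16 and group E18 was embryonic day 18, each with 3 libraries lettered A, B and C. The labels do not say whether the libraries came from separate litters, animals or pools, so the spread between them may be partly technical.

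Ribosomal proteins wrap the ribosomal RNAs of the subunits and are needed in nearly equal amounts, since each is present once per ribosome apart from the acidic stalk proteins. Their messenger RNAs are among the most abundant of dividing cells and typically begin with a terminal oligopyrimidine (TOP) tract, a cytosine at the cap followed by a run of C and T, through which mTORC1 and LARP1 control their translation and stability. Fetal liver is a site of haematopoiesis, and loss of 1 copy of several of these genes causes Diamond-Blackfan anaemia, a failure of red cell production.

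The TOP tract is the sequence feature this family is known for, so the start windows of a few members are shown. RefSeq promoter sequences (GRCm38.p6) were matched to 65 of the 85 members by symbol, with the first listed start of each. The windows run from 30 bases before the start to 12 bases from it on the gene's strand, and the capitals mark the pyrimidine run that overlaps or lies nearest the start. The first 4 have a C at the annotated start and a long run, Rps27 and its retrogene-type paralogue Rps27rt are set side by side, and Rps12 and Rps13, which recur in the results, have no such run within 5 bases of the start listed.
Rps6 (chr4:86857356-86857397, minus strand): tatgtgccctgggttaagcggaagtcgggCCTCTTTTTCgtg
Rps15a (chr7:118116136-118116177, minus strand): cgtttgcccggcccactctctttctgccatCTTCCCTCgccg
Rpl38 (chr11:114668550-114668591, plus strand): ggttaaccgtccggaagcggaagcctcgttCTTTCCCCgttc
Rps18 (chr17:33955654-33955695, minus strand): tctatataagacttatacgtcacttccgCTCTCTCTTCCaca
Rps27 (chr3:90213637-90213678, minus strand): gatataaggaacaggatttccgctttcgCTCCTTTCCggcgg
Rps27rt (chr9:114982728-114982769, minus strand): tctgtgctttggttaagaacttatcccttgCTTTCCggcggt
Rps12 (chr10:23787198-23787239, minus strand): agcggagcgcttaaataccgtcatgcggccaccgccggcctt
Rps13 (chr7:116334179-116334220, minus strand): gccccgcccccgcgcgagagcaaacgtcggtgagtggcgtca
A C at the annotated start with at least 4 further pyrimidines was found in 13 of 65 members (20%) and in 380 of 17492 protein-coding genes (2.17%). Allowing the run to begin within 5 bases of the start gave 29 members (44.6%) against 18.7% of all. RefSeq starts are often a few bases from the true cap site, so a missing run says only that these letters are not at the listed start. Over the 300 bases from 250 before the start to 50 after it, on both strands, the ETS-type motif CCGGAAG was present in 25 of 65 member promoters (38.5%) and 11.9% of all. The YY1-type motif AAGATGGCG was in 4 members (6.15%) against 1.94%, the GC box GGGCGG in 39 (60.0%) against 46.3%, and the TATA box TATAAA in 6 (9.23%) against 13.3%. These matches are descriptions of sequence and not of binding.

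The table gives TPM, an abundance of transcripts per length of gene that is scaled to the same total in each library. Values multiplied by exon length came out as whole reads within 0.05 for 96.8% to 97.1% of values, which gave totals of 21130197 to 22626885 reads at E16 and 14587544 to 18281942 at E18. The members drew 244348 to 672194 of these reads per library. The noncoding gene Gm26917 alone took 198072 to 339083 TPM, so every other TPM value was compressed to a different degree in each library. Mesenchymal markers (10 genes, such as Col1a1 and Pdgfrb) summed to 382 to 754 TPM at E16 and 2103 to 5530 at E18. Erythroid markers (10 genes) summed to 5228 to 7013 and 10574 to 18572 TPM, and hepatocyte markers (10 genes) to 2072 to 8736 and 376 to 980 TPM. The mesenchymal label therefore covers libraries with much erythroid and hepatocyte RNA. Endothelial markers summed to 1.34 to 7.86 TPM with 0 of 6 passing the filter on low values, whereas 6 leukocyte markers summed to 37.2 to 112 TPM. Nearly all of that was the macrophage gene Cd68 (34.6 to 108 TPM), with Csf1r at 0.709 to 3.49 TPM, Ptprc and Mpo under 1 TPM and Adgre1 at 0. In such bulk libraries fewer cells of a type and less RNA per cell cannot be told apart.

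The question the labels pose is how expression differs between the days. No ribosomal protein gene passed the test between E16 and E18. The genes were compared by limma on log2(TPM + 1) with p-values adjusted by Benjamini-Hochberg over all 17824 genes with at least 1 TPM in at least 3 libraries. Of the 85 members, 82 passed the filter, and Rpl3l, Rpl10l and Rpl39l, which are known mainly from muscle and testis, were at or near 0. At an adjusted p under 0.05, 0 of 82 members were called, against 3.47% of all genes tested (0.387% lower and 3.08% higher at E18). At an unadjusted p under 0.05, 5 members were lower at E18 and 0 higher, against 5.65% and 15.2% of all genes. A voom fit on the recovered reads called 1 of 82 members, Rps12, lower at E18, and 8.11% of all genes (0.943% lower). The smallest adjusted p of a member in the limma fit was 0.0523, again for Rps12.

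Though no single gene passed, most members were a little lower at E18 by their point estimate. The log2 fold change (E18 minus E16) was below 0 in 68 of 82 members (82.9%), against 43% of all genes. Its median was -0.19 over members and 0.07 over all genes, and the members ran from -0.86 for Rpl36al to 0.18 for Rps6. All 3 E18 values lay below all 3 E16 values in 6 members (7.32%), a share close to the 8.05% of all genes. Members with the opposite separation numbered 0, against 18.4% of all genes.

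**Figure D1:**
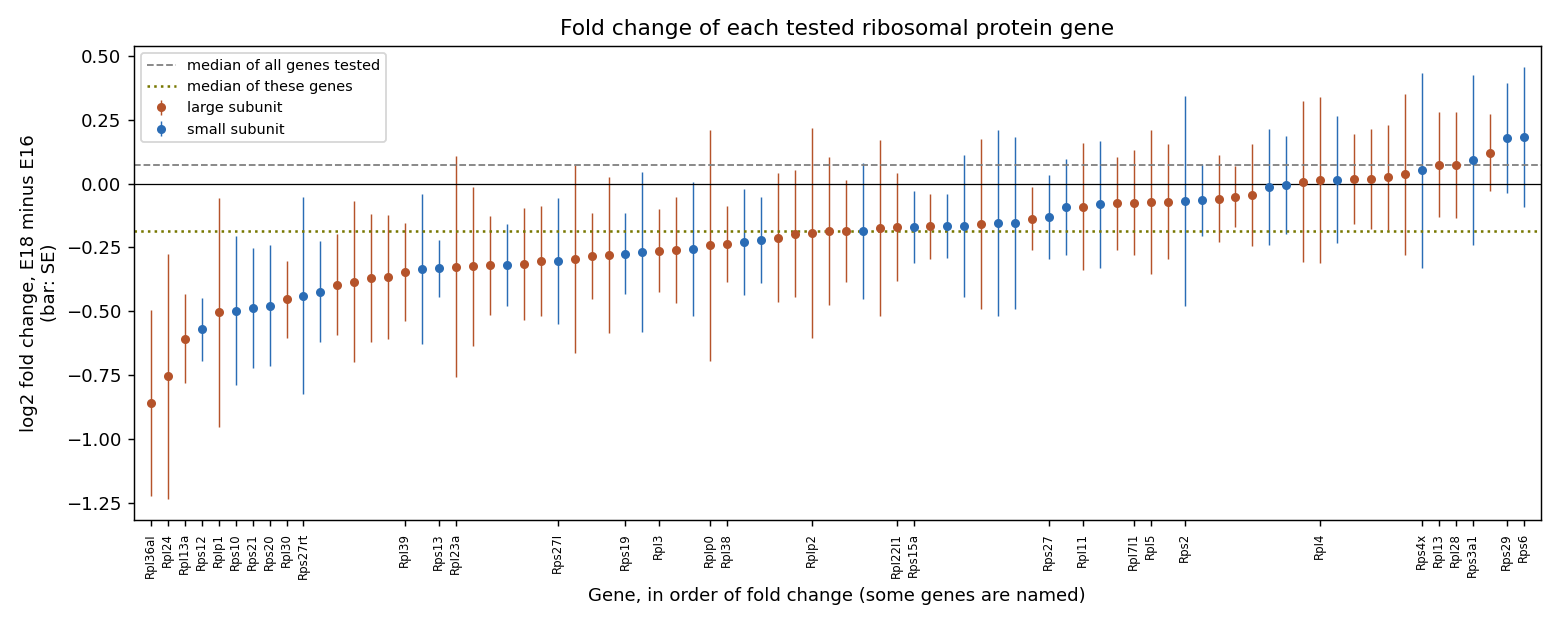
Log2 fold change (E18 minus E16, log2(TPM + 1) scale) of each of the 82 tested ribosomal protein genes, in order, with bars of 1 standard error and some genes named on the axis. Most points lie below 0, from -0.86 to 0.18, and many bars reach 0; the dashed line is the median of all genes tested (0.07) and the dotted line that of the members (-0.19).

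The members shared a pattern over the libraries that did not follow the days. Their summed level was 35328, 59262 and 40224 TPM in the E16 libraries A, B and C, and 40202, 30603 and 50089 TPM in the same order at E18, so the highest library was E16 B, the lowest E18 B, and the days overlapped. The members took 7.92%, 10.02% and 7.77% of protein-coding TPM at E16, and 7.51%, 5.87% and 8.96% at E18. E16 B held the highest value in 67 of 82 members and E18 B the lowest in 57. Both held at once in 50 members (61.0%), against 8.94% of all genes. The median deviation of the members from their own mean over the 6 libraries was -0.08, 0.41 and -0.05 in E16 A, B and C, followed at E18 by -0.07, -0.38 and 0.16 (log2 scale). The profile over the 6 libraries followed the median profile of the other members with a Pearson r over 0.9 in 39 of 82 genes and under 0.5 in 11. These points share libraries and depth, so the r values only describe how alike the profiles are.

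**Figure D2:**
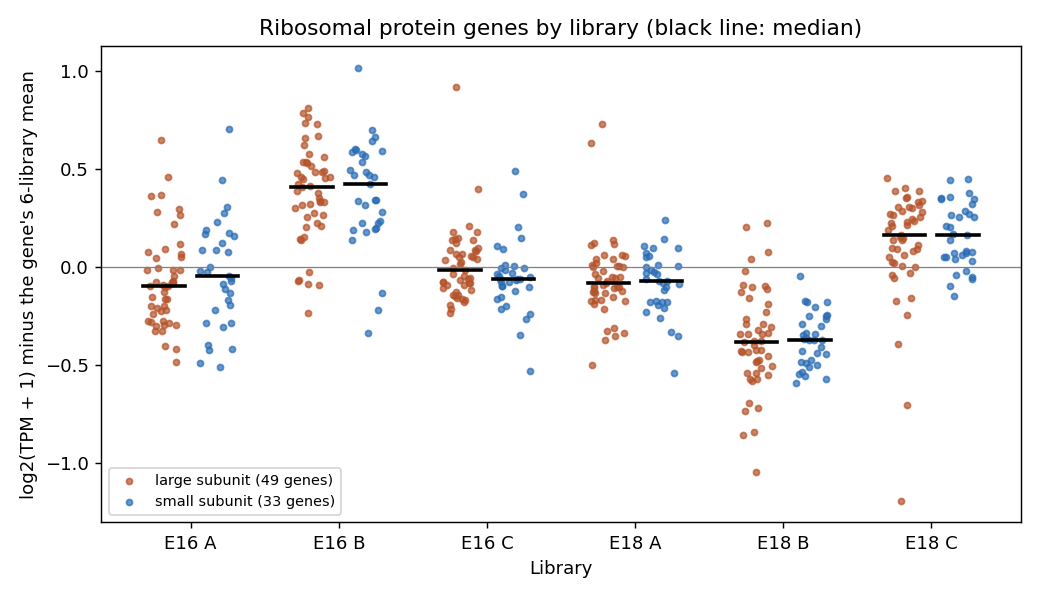
Each point is 1 tested ribosomal protein gene, with its log2(TPM + 1) in a library minus its mean over the 6 libraries, large subunit in brown and small subunit in blue, and black lines at the medians. Library E16 B lies above 0 and library E18 B below 0 in both subunits, E18 C lies above 0 by less (median 0.16), and the other 3 libraries are within 0.08 of it.

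The median between the days depended on single libraries. Without both B libraries, an alternative chosen after seeing the data, the median over members was 0.09 and that over all genes 0.07, with 29 of 82 members below 0. In those 4 libraries 11 members were lower at E18 without overlap (17.2% of all genes were) and 27 were higher (29.6% of all genes were), and limma called 0 members and 0 of all genes. Leaving out 1 library at a time, the median of members was -0.02 without E16 B and -0.05 without E18 B, but -0.34 without E18 C, -0.29 without E16 A, -0.28 without E16 C and -0.20 without E18 A. Library E16 B also had the highest hepatocyte marker sum of all 6, 8736 TPM against 2585 in E16 A and 2072 in E16 C, and the lowest level of Gm26917. Library E18 B had the highest mesenchymal marker sum, 5530 TPM against 2566 in E18 A and 2103 in E18 C. The part of these differences in the members' levels was not tested beyond 2 fits: with a hepatocyte score as covariate the median of members was 0.28, and with an erythroid score it was 0.08. Both marker sums separated the days completely, so in these fits the score and the day can hardly be told apart.

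Levels differed among members much more than between days. Mean TPM over the 6 libraries ran from 3.34 for Rpl36al to 3745 for Rplp1 among the 82 tested, and 59 were at 100 TPM or more. The 10 highest members held 51.7% of all member TPM. In order the highest 5 were Rplp1 (3745 TPM) and Rplp0 (3547 TPM), Rps2 (2844 TPM), Rps4x (1874 TPM) and Rps6 (1765 TPM). The ranges over libraries overlapped between neighbours, but all members share each library's level. Within libraries Rplp0 was above Rps2 in 6 of 6 (1.05 to 1.35 times) and Rps2 above Rps4x in 6 of 6 (1.45 to 1.62 times). Rplp1 was above Rplp0 in 3 of 6 and Rps4x above Rps6 in 2 of 6, so the order of these pairs was not resolved. The lowest 5 tested were Rpl36al, Rpl24 (5.49 TPM), Rpl23a (12.1 TPM), Rpl22l1 (16.9 TPM) and Rps27rt (17.9 TPM). Rpl24 and Rpl23a encode core proteins of the large subunit, and 81.7% and 85.7% of the 50-base stretches of their transcripts also occur in transcripts of other genes. Of the exon length of these 2 genes 47.0% and 62.3% lies under exons of other genes. The part of either feature in their low levels was not tested. They rested on 9 to 58 and 19 to 85 recovered reads per library.

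Shared sequence is common in this family, which has many processed pseudogenes, though transcripts of any other gene were counted as well. The share of 50-base stretches that also occur in another gene's transcript ran from 0% to 98.6% over the tested members, with a median of 62.8%. The authors' handling of reads that map to several places is not given in the sources used here, so the levels of members with a high share are uncertain. The 294 pseudogenes named after these genes added 10.7 to 12.4 TPM for every 100 TPM of members, with no separation between days. Across the 82 members the shared percentage was only weakly related to level (Spearman rho = -0.06) and to fold change (rho = 0.01), as a description over genes that share libraries. Rps27 had the highest percentage, 98.6%, and Rps27rt 91.1%, so reads of these 2 genes in particular may be divided between them and their copies.

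Rps12, a protein of the small subunit head (chr10:23785183-23787275, minus strand), came nearest to a call. Its level was 198, 203 and 184 TPM at E16 and 127, 123 and 144 TPM at E18. All E18 libraries lay below all E16 libraries, with a gap larger than the spread on either day. The means were 195 ± 9.68 and 131 ± 11.2 TPM (SD, n = 3), and the log2 fold change was -0.57 ± 0.12 (SE) with a limma adjusted p of 0.0523. Voom on recovered reads gave -0.60 with an adjusted p of 0.0303. Over all alternatives run the fold change was negative, and its adjusted p lay between 0.00611 (limma with array weights) and 0.9999 (limma with an erythroid score). The array weights favoured E16 C and E18 A strongly over the other libraries. Of the 50-base stretches of its transcript 90.1% occur in other genes, 23 pseudogenes carry its name, and 3 snoRNA genes lie within it.

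Rpl13a, a large subunit protein also known from the GAIT complex that silences inflammatory messages, stood at 67.2, 57.5 and 68.7 TPM at E16 and 36.4, 38.2 and 52.7 TPM at E18. The days did not overlap, and the fold change was -0.61 ± 0.17 (SE, limma adjusted p = 0.101). Rpl30 stood at 69.7, 70.1 and 63.7 TPM at E16 and 51.3, 41.1 and 56.5 TPM at E18, with a fold change of -0.45 ± 0.15 (limma adjusted p = 0.139). Rps13 varied little within a day, with 79.0, 79.6 and 74.5 TPM at E16 and 58.9, 61.1 and 64.7 TPM at E18. Its means were 77.7 ± 2.80 and 61.6 ± 2.91 TPM (SD, n = 3), and the fold change was -0.33 ± 0.11 (SE, limma adjusted p = 0.145). Rpl3, which reaches into the peptidyl transferase centre, was at 641, 714 and 681 TPM at E16 and 581, 501 and 620 TPM at E18, a small separation with a fold change of -0.26 ± 0.16 (limma adjusted p = 0.43). The paralogue Rpl36al was at 4.55, 2.78 and 6.62 TPM at E16 and 2.68, 1.94 and 1.47 TPM at E18, on 11 to 58 reads per library. Its fold change was -0.86 ± 0.36 with a limma adjusted p of 0.237.

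**Figure D3:**
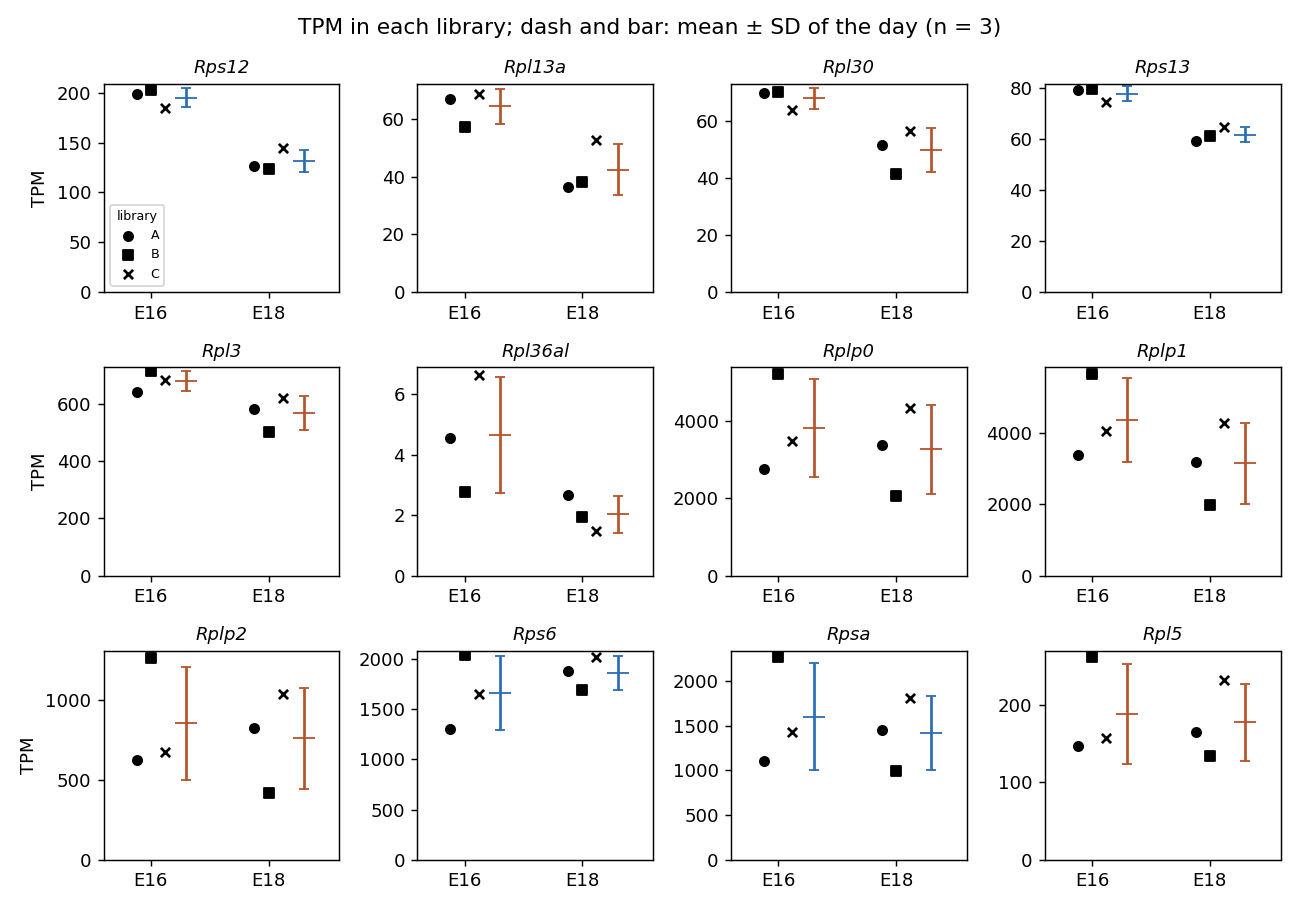
TPM of 12 ribosomal protein genes in the 6 libraries (circle A, square B, cross C), with the mean and SD of each day (n = 3). The first 6 panels are the members with no overlap between days, such as Rps12 at 184 to 203 against 123 to 144 TPM; in most of the other 6 the square is the highest point at E16 and the lowest at E18.

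These 6 genes had little of the excess of library E16 B. Their median difference of E16 B from the mean of E16 A and C was 0.06 on the log2 scale, and it was 0.50 over the other 76 members. Without both B libraries their fold changes were -0.50 for Rps12, -0.62 for Rpl13a, -0.30 for Rpl30, -0.31 for Rps13, -1.11 for Rpl36al and -0.14 for Rpl3. The genes were picked for having all E18 values below all E16 values, so this sign was fixed in advance. Such a choice also favours genes with small swings within a day, so the small E16 B difference is no separate result. They had a median level of 64.2 TPM, against 303 TPM for the others. Of the 30 tested members with a snoRNA gene inside them 5 were among the 6, and of the 52 without, 1 (Rpl36al) was. The median fold changes were close, -0.18 with and -0.19 without a snoRNA gene inside. Of all genes tested, 8.05% were lower at E18 without overlap. Of the 16 members with at least 10% of their exon length under other genes 4 were among the 6, against 2 of the other 66. The strand setting of the counting is not given in the sources used here, so reads of overlapping genes on opposite strands may not be separated.

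The excess in E16 B followed level across the family. Spearman's rho of mean TPM with the E16 B difference was 0.69 over 82 members, and rho of the E16 B difference with that of E18 B was -0.64. Mean TPM had a rho of 0.37 with the fold change. The points share all libraries, and low members also carry more counting error, so these are descriptions. The 59 members at 100 TPM or more had a median fold change of -0.17 and a median E16 B difference of 0.56, while the 23 below had -0.32 and 0.09.

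**Figure D4:**
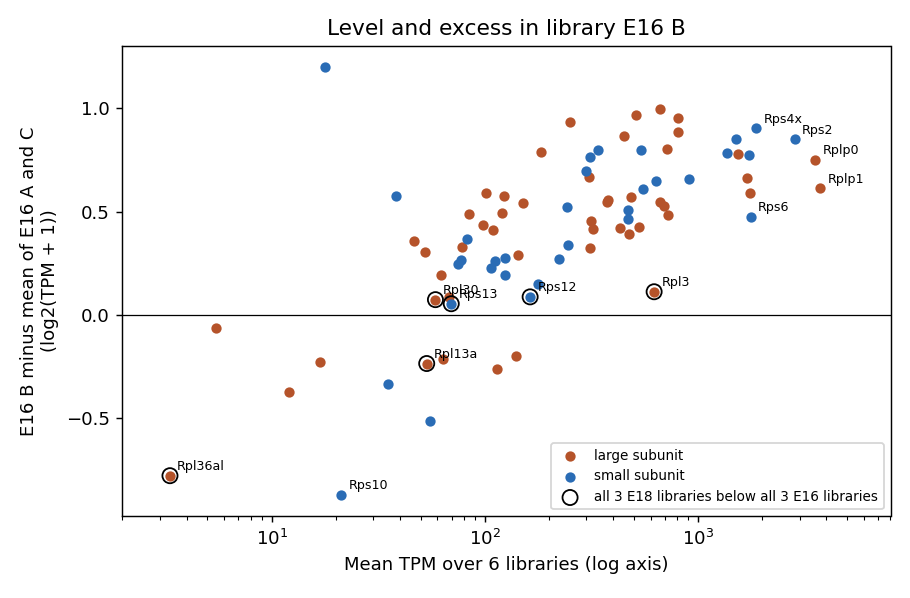
Difference of library E16 B from the mean of E16 A and C (log2(TPM + 1)) against mean TPM over the 6 libraries (log axis) for the 82 tested members, large subunit in brown and small in blue. Most members above 100 TPM lie above 0, whereas the circled genes with no overlap between days lie near or below 0.

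The large and small subunits had nearly the same median fold change. The median was -0.19 over 49 large subunit genes and -0.17 over 33 small subunit genes, a difference of -0.02, and 3 large and 2 small subunit genes had an unadjusted p under 0.05. The mean log2 level of the 46 large minus that of the 31 small core genes was -0.17, -0.09 and -0.12 in E16 A, B and C, and the E18 libraries gave -0.11, -0.16 and -0.17. These values overlapped, with means of -0.13 ± 0.04 and -0.15 ± 0.03 (SD, n = 3). Weighted by level the picture differed. The ratio of summed TPM, large over small, was 1.52, 1.44 and 1.48 at E16 and 1.39, 1.31 and 1.38 at E18, with no overlap. That separation rested on the 3 stalk genes: without them the ratio was 1.04, 0.943 and 0.972 at E16 and 0.951, 0.970 and 0.919 at E18, and the days overlapped.

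The stalk proteins Rplp0, Rplp1 and Rplp2 form the flexible arm of the large subunit that recruits the elongation factors. Rplp0 was at 2764, 5229 and 3486 TPM at E16 and 3393, 2064 and 4347 TPM at E18. Rplp1 was at 3372, 5641 and 4034 TPM at E16 and 3168, 1989 and 4267 TPM at E18. Both were highest in E16 B and lowest in E18 B, and the days overlapped. Their fold changes were -0.24 ± 0.45 and -0.50 ± 0.45 (SE; limma adjusted p = 0.82 and 0.597), and that of Rplp2 was -0.19 ± 0.41. Within a library, however, Rplp1 stood at 122, 108 and 116 TPM for every 100 TPM of Rplp0 at E16, and at 93.4, 96.4 and 98.2 at E18. This ratio does not depend on the library's scaling and did not overlap between days, with 115 ± 7.07 at E16 and 96.0 ± 2.41 at E18 (SD, n = 3). It was 1 of 7 such ratios between related members computed, and the other 6 overlapped between days. Rplp2 for every 100 TPM of Rplp0 was 22.6, 24.1 and 19.4 at E16 and 24.3, 20.2 and 23.9 at E18.

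Rpl5 and Rpl11 join the 5S ribosomal RNA in the particle that binds Mdm2 when ribosome assembly is disturbed. Rpl5 was at 146, 262 and 157 TPM at E16 and 165, 134 and 232 TPM at E18, and Rpl11 followed the same order of libraries. Their fold changes were -0.07 ± 0.28 and -0.09 ± 0.25 (SE), smaller than their errors. The 7 genes around the peptide exit tunnel (Rpl4, Rpl17, Rpl19, Rpl23a, Rpl26, Rpl35 and Rpl39) had a median of -0.16, with 5 below 0 and 0 called. Of these Rpl39, the small protein inside the tunnel, was at 54.2, 66.9 and 53.7 TPM at E16 and 46.0, 35.9 and 56.7 TPM at E18.

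The 14 genes of the small subunit head, the domain that turns during translocation, had a median of -0.20, with 12 below 0. Besides Rps12 they include Rps10, which was at 33.8, 15.9 and 26.6 TPM at E16 and 15.7, 14.7 and 21.1 TPM at E18. In Rps10 the E16 B library was low, the reverse of most members, and the fold change was -0.50 ± 0.29 (limma adjusted p = 0.4). Rps20 was at 233, 355 and 262 TPM at E16 and 197, 157 and 260 TPM at E18, with E18 C above E16 A (-0.48 ± 0.24, limma adjusted p = 0.313). Rps21, outside the head, had a fold change of -0.49 ± 0.23 (limma adjusted p = 0.301). The 18 members whose loss of 1 copy causes Diamond-Blackfan anaemia had a median of -0.18, with 17 below 0, 0 called and 0 without overlap. Rps19, the gene most often affected in that disease, was at 131, 154 and 124 TPM at E16 and 114, 94.8 and 130 TPM at E18 (-0.27 ± 0.16).

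At the other end, the highest fold changes were those of Rps6 and Rps29 in the small subunit. Rps6, the substrate of the S6 kinases, was at 1304, 2042 and 1653 TPM at E16 and 1880, 1689 and 2021 TPM at E18. The highest library was E16 B and the lowest E16 A, and the fold change was 0.18 ± 0.27 (SE). Rps29 was at 231, 265 and 189 TPM at E16 and 253, 202 and 328 TPM at E18 (0.18 ± 0.21), and Rps3a1 had a fold change of 0.09 ± 0.33. In the large subunit Rpl13 and Rpl28 had fold changes of 0.07 ± 0.21 each. Some members ran against the family over the 6 libraries, such as Rpl22l1, with a Pearson r of -0.60 to the median of the other members, and Rpl38 (r = -0.36), the protein lost in the Tail-short mouse with its altered axial skeleton. Rpl38 was at 77.5, 61.9 and 67.0 TPM at E16 and 55.2, 66.6 and 53.1 TPM at E18.

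The 5 tested paralogues were all expressed below their core partners. Rpl22l1, which can replace Rpl22 in the ribosome, stood at 21.4, 10.7 and 17.2 TPM for every 100 TPM of Rpl22 at E16 and 20.9, 26.4 and 10.7 at E18. The days overlapped, and the ratio was lowest in the libraries with most ribosomal protein RNA, E16 B and E18 C. Rps27l, a p53-inducible relative of Rps27, stood at 31.1, 38.7 and 27.8 for every 100 TPM of Rps27 at E16 and 30.4, 26.7 and 28.3 at E18. Rpl36al stood at 0.407 to 2.37 for every 100 TPM of Rpl36a, and Rpl7l1 at 9.16 to 13.1 for every 100 TPM of Rpl7, both overlapping between days. The paralogues had a median fold change of -0.30, with 5 of 5 below 0 and 0 called.

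Fau and Rack1, outside the name rule, had fold changes within their errors, -0.12 ± 0.24 and -0.06 ± 0.29 (SE). Other genes with TOP tracts that act in translation had a similar median: 13 of 15 were below 0, with a median of -0.23, and 0 were called, 3 having an unadjusted p under 0.05. Eef1a1, the elongation factor that brings in tRNA, was at 3758, 7507 and 5193 TPM at E16 and 4897, 4339 and 6284 TPM at E18, highest in E16 B as the ribosomal proteins were. Tpt1 had a fold change of 0.21 ± 0.28. Npm1, a nucleolar chaperone, was at 656, 1082 and 897 TPM at E16 and 434, 346 and 647 TPM at E18, with no overlap and a fold change of -0.90 ± 0.29 (limma adjusted p = 0.132). The 30 initiation factors had a median of -0.21 with 0 called and 1 at an unadjusted p under 0.05. The share of all genes lower at E18 at that limma p was 5.65%.

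The medians of the genes that build ribosomes lay further below 0. Of 52 ribosome assembly factors 51 were below 0, with a median of -0.48. Limma called 0 of them. At an unadjusted p under 0.05, 23 were lower at E18, against 5.65% of all genes. Without overlap between days 27 were lower at E18, against 8.05% of all genes and 6 of 82 members. Utp20, of the small subunit processome, was at 63.9, 68.4 and 73.4 TPM at E16 and 40.6, 40.0 and 50.2 TPM at E18, with a fold change of -0.65 ± 0.14 (limma adjusted p = 0.0531). The box H/ACA protein Nhp2 had -0.80 ± 0.19 (limma adjusted p = 0.0688) and the GTPase-like factor Tsr1 -0.59 ± 0.14 (limma adjusted p = 0.0662). RNA polymerase I, which transcribes ribosomal RNA, had 14 of 14 genes below 0 with a median of -0.40. Of these 5 were lower at E18 without overlap between days, against the same 8.05% of all genes. An example is the catalytic subunit gene Polr1a, at 65.0, 63.1 and 71.1 TPM against 46.5, 43.3 and 54.5 TPM. Without both B libraries the medians were -0.30 for the assembly factors and -0.20 for RNA polymerase I, and 28 of 52 and 5 of 14 did not overlap in those 4 libraries, against 17.2% of all genes.

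Mitochondrial ribosomal proteins, which are made in the cytosol for another ribosome, had a median of -0.36 over 77 tested genes. Of these 73 were below 0, 17 (of 77) were lower without overlap, against 8.05% of all genes, 0 were called, and E16 B was the highest and E18 B the lowest library in 36 of them. Without both B libraries their median was -0.10. Mrps27 came nearest to a call, at 26.2, 43.8 and 34.8 TPM against 18.7, 16.5 and 16.7 TPM (-0.94 ± 0.21, limma adjusted p = 0.0549). The 6 tested snoRNA host genes had a median of -0.52, and 4 of the 6 were lower at E18 without overlap, against the same 8.05%. Among them Gas5, a noncoding TOP gene, was at 327, 194 and 243 TPM at E16 and 179, 185 and 161 TPM at E18 (-0.51 ± 0.20, limma adjusted p = 0.204). Unlike most ribosomal protein genes, Gas5 was at its lowest E16 value in library B.

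**Figure D5:**
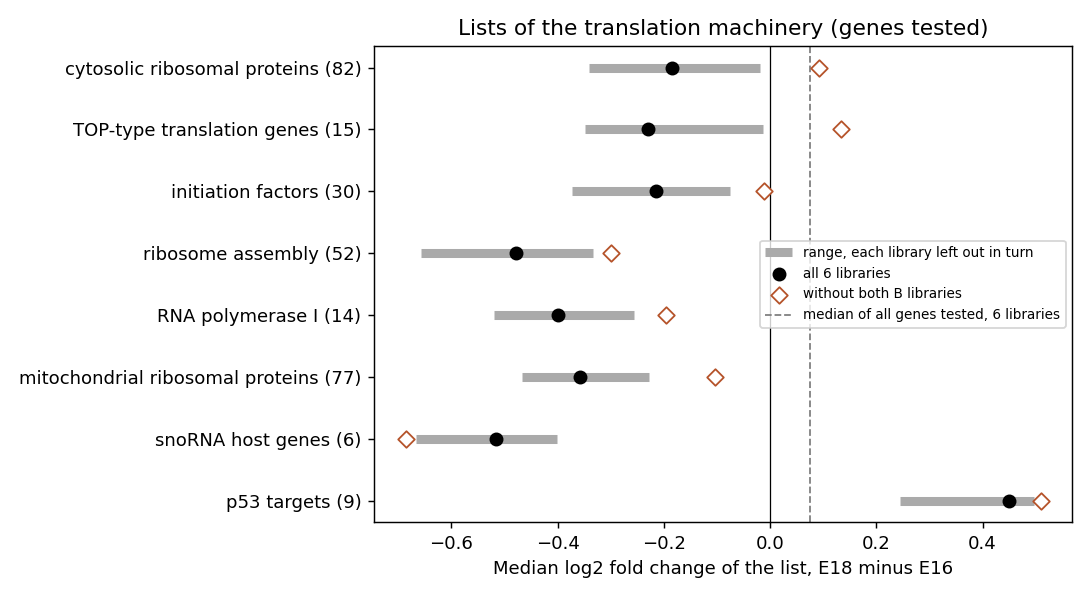
Median log2 fold change (E18 minus E16) of the ribosomal protein genes and 7 other lists of the translation machinery and its stress responses, with the number of genes tested: black points, all 6 libraries; grey bars, range when each library is left out in turn; open diamonds, without both B libraries. The ribosomal protein genes move from -0.19 to 0.09 and the TOP-type genes from -0.23 to 0.13, while the assembly factors stay below 0 (-0.48 and -0.30).

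Of the regulators listed for this pathway, 1 passed the limma test, where 3.47% of all genes tested passed (3.08% higher at E18). A single call therefore says little about the list. Ddit4, an inhibitor of mTORC1, rose from 1.42, 2.75 and 1.32 TPM at E16 to 7.23, 13.6 and 13.1 TPM at E18, a log2 fold change of 2.11 ± 0.35 with a limma adjusted p of 0.0353. It was higher at E18 under all 21 alternatives but called under only 9 of them: with the replicate block (adjusted p = 0.0915), no filter, quantile scaling, either covariate, any library left out (0.0553 to 0.106) or both B libraries left out (0.137), the limma call was lost. The other 17 of the 18 tested genes of mTORC1 and TOP control did not pass, and the list's median was -0.08. Larp4, which binds poly(A) tails, had a fold change of -0.50 ± 0.17 (limma adjusted p = 0.153). Myc, a driver of ribosome production, was at 32.0, 47.2 and 43.6 TPM at E16 and 33.4, 32.8 and 46.6 TPM at E18 (-0.12 ± 0.21), and Mycn was under 1 TPM in all libraries. Of 9 tested p53 targets, the genes that answer to free Rpl5 and Rpl11 through Mdm2, 8 were above 0 with a median of 0.45. Of all genes 43% were below 0, and their median was 0.07. With a filter of 5 TPM, which kept 6 of them, the median was 0.12. None of the 9 was called by limma, against 3.47% of all genes, and 1 was called by voom, against 8.11%. In limma 3 were higher at E18 at an unadjusted p under 0.05, against 15.2% of all genes. Of these 3, 1 passed the 1 TPM filter only through the E18 libraries, which fixed its direction. Bbc3, which encodes the cell death protein PUMA, was at 10.1, 9.78 and 11.6 TPM at E16 and 16.9, 13.7 and 13.7 TPM at E18 (0.45 ± 0.19, limma adjusted p = 0.235). The erythroid marker sum was higher in every E18 library than in any E16 library and the hepatocyte marker sum lower. The lists were also refitted with either score as covariate, but score and day can hardly be told apart in those fits. The part of erythroid and hepatocyte RNA in the differences of these lists was not tested in any other way.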

How the data were processed

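RNA of 6 libraries (3 at each of 2 embryonic days) was analysed from the TPM table that the authors deposited. Per the labels' protocols, livers were dissociated with collagenase IV and Dispase and libraries were made from total RNA with a stranded kit. The tools HTSeq 0.5.4p3, HISAT2 2.1.0, FastQC 0.11.7 and Bowtie and the genome build mm10 come from the submitters' processing notes, which give them no roles. How TPM was computed, which annotation and strand setting were used and how reads with several matches were treated is not given in the sources used here.

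Identifiers were matched to GENCODE M21, which left 37 of 54532 without annotation. The rule on symbols was read as a prefix, a number and any further letters or digits, so Rps3a1, Rpl22l1 and Rpl7l1 are members. The 17824 genes that reached 1 TPM in 3 or more of the 6 libraries were tested by limma 3.58.1 (R 4.3.3), with the variance trended on mean log2(TPM + 1), 2-sided, with Benjamini-Hochberg adjustment over all of them and a threshold of 0.05. The log2 scale with a pseudocount of 1 understates changes of low genes. Reads were recovered from the TPM steps and merged exon lengths. Depth limits genes of few TPM, since recovered totals were 14587544 to 22626885 reads. The recovered reads of 2 libraries of a day gave a chi-square per degree of freedom of 20.9 to 107, far over the value of 1 that sampling alone gives, so none was counted as a repeat. An exact permutation of 3 against 3 libraries cannot give a p below 0.1, and none was used.

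The members and all lists were chosen with earlier results of these data known. Genes named were the members of the role lists, the 4 lowest and 3 highest fold changes of each subunit, the 5 highest and 5 lowest levels, the 3 smallest p of each pathway list and 9 fixed genes; Rpl3, Rpl30, Rps13, Rpl38 and the genes of the sequence windows were chosen after their values were seen. Shared sequence was the percentage of 50-base stretches of the longest coding transcript found in transcripts of other genes. The fit was tested on simulated data. Figures were drawn with Matplotlib 3.10.9 from Python 3.11.15. Alternatives were 2 pseudocounts, 2 filters, 4 scalings, no trend, array weights, the letter as block, 2 covariates, voom on recovered reads and leaving out each library; leaving out both B libraries was chosen after seeing the data. Results of some genes that the naming rule takes are not reported here.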

Additional observations from a re-analysis of the deposited data

How the results depend on the processing

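The median fold change of members (-0.19) was below 0 under all scalings, filters, pseudocounts and single libraries left out (-0.34 to -0.02), and above 0 with the hepatocyte score (0.28) or the erythroid score (0.078) as covariate and without both B libraries (0.092). In the covariate fits the score and the day can hardly be told apart. With array weights the median of members shrank to -0.055, with 51 of 82 members below 0. Calls among members were 0 with limma, where 0.387% of all genes were called lower. With median-of-ratios scaling 1 was called (Rps12), against 0.596% of all genes lower, and with voom 1 (Rps12), against 0.943%. Array weights gave 7 (all lower, among them Rpl13a, Rpl30, Rpl36al, Rps10, Rps12 and Rps13), against 8.53% of all genes called lower. With each library left out 0 to 1 were called. The 1 was Rpl13a without E18 C (limma adjusted p = 0.0492), against 0.746% of all genes lower. Array weights were 3.76 for E16 C and 3.62 for E18 A, and 0.484 to 0.605 for the other libraries. Calls of that fit therefore rest mostly on 1 library per day. Members lower without overlap, 6, numbered 15 with median-of-ratios scaling (13.3% of all genes), 11 with quantile scaling (14.8%), 16 when rescaled to protein-coding nuclear genes (11.5%), 11 without both B libraries (17.2%) and 7 to 28 with each library left out (10.9% and 16.1%, without E18 B and without E18 C). The large minus small difference (-0.02) was 0.022 with the erythroid score, 0.0077 without both B libraries and -0.041 to 0.026 with each library left out.

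All genes called, 618, were 347 with a pseudocount of 5, 0 with no filter, 406 with the 5 TPM filter, 390 with quantile scaling, 4316 with array weights, 0 with either covariate, 1446 with voom, 0 without both B libraries and 0 to 664 with each library left out. Quantile scaling moved the median of all genes from 0.07 to -0.09; relative to it, members stood at -0.16, against -0.26 as reported. With the letter as a replicate block 0 genes and 0 members were called. Deviations of libraries with the same letter correlated at 0.10 (A), -0.14 (B) and -0.12 (C), and those with different letters at -0.15 to 0.22. With 3 libraries per day these values cannot decide whether the letters pair the samples. Depth limits Rpl36al, Rpl24 and Rpl23a, which rest on 9 to 85 reads per library.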
